A study of Mus musculus with 12 samples.

Results

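The genes described here belong to the unfolded protein response (UPR) of the endoplasmic reticulum (ER) and to the integrated stress response, which converges on the transcription factor ATF4. A list of 38 gene symbols defined them, and all 38 were found among the 56941 genes of the count table. They were ordered by role into 14 ER chaperones and folding enzymes, 4 genes for stress sensors and XBP1, 5 genes of ER-associated degradation, Atf4 itself, and 14 ATF4 targets. The cells were 3T3-L1, fibroblasts of an embryonic mouse line with a genotype given as wild type, and they were collected after 24 hours. There were 4 conditions with 3 libraries each. Control cells had vehicle as their treatment label and untreated in their library names. IL-4/13 cells received IL-4 and IL-13, each at 50 ng/mL. Inf cells received an inflammatory mixture, with IL-17A given at 50 ng/mL, TNF-α at 20 ng/mL, and 0.5 ng/mL of IL-1β, and IL-4/13 + Inf cells received all of these cytokines. The study used this design to examine how type 2 cytokines act on fibroblasts with and without inflammatory cytokines.

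The UPR begins when unfolded proteins accumulate in the ER and activate the sensors IRE1 (gene Ern1), PERK (Eif2ak3), and ATF6. IRE1 splices the mRNA of Xbp1, ATF6 is cut to release a transcription factor, and both increase the supply of chaperones and degradation factors. PERK and related kinases phosphorylate eIF2α, which lowers general translation while favouring translation of ATF4. ATF4 in turn drives amino acid synthesis, amino acid uptake, and, under lasting stress, the proapoptotic factor CHOP (Ddit3). Fibroblasts secrete large amounts of collagen and other matrix proteins, so ER folding capacity is a standing requirement of these cells. Gene-level counts register neither Xbp1 splicing nor ATF4 translation nor protein cleavage.

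The depth was 13446005 to 20775769 counts per library. Levels are given as CPM, the counts scaled to library totals with edgeR's TMM factors. Of the 38 genes, 37 passed the filter on low counts. Derl3, a channel component of ER-associated degradation, did not, with 0 to 11 counts per library. All 10 fibroblast markers exceeded 3 counts in at least 1 library, with a summed level of 16666 to 19435 CPM in control and 11769 to 12139.9 CPM in IL-4/13 + Inf. The part of this difference in the results was not tested. The markers of adipocytes, macrophages, epithelial cells, and endothelial cells summed to at most 32.2, 7.86, 0.66, and 1.58 CPM in any library. In the same order, 1 of 6, 4 of 6, 1 of 4, and 2 of 3 markers exceeded 3 counts in at least 1 library. The adipocyte sum, in which Fabp4 alone exceeded 3 counts, was 10.7 to 12.3 CPM in control and 28.7 to 32.2 CPM with Inf. In bulk RNA, fewer cells with a transcript and less of it in each cell cannot be told apart. Upregulation or downregulation was called where the adjusted p was below 0.05 and the log2 fold change exceeded 0.25 in size, by edgeR's quasi-likelihood test, with Benjamini-Hochberg adjustment over all 14810 tested genes. All libraries came from 1 cell line. Because nothing states that the 3 libraries of a condition came from separate cultures, the p-values measure the spread between these libraries, which may be technical.

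IL-4/13 alone downregulated 4 of the 37 tested genes, all of them ATF4 targets, and upregulated 0 (against 2.57% of all tested genes called down and 2.78% called up). At an unadjusted p below 0.05, 10 of the 37 were higher, and DESeq2 also called 0 up. Inf downregulated 15 of them and upregulated 2 (15.3% and 16.3% of all tested genes). IL-4/13 + Inf against control gave 13 downregulated and 4 upregulated genes (11.5% and 13.4%). Adding IL-4/13 to Inf upregulated 11 genes and downregulated 0 (7.55% and 7.00%). For the downregulated genes, 3 had an unadjusted p below 0.05, and DESeq2 also called 0. The response to IL-4/13 was higher with Inf than without it for 7 genes and lower for 0 (1.52% and 1.59%), as tested by the interaction term of the same fit. No gene had an unadjusted p below 0.05 for a lower response (0 genes), and DESeq2 called 0. The comparisons against control shared the control libraries, and IL-4/13 + Inf against Inf shared its treated libraries with one of them. The same 3 Inf libraries were the treated group of Inf against control and the reference group of IL-4/13 + Inf against Inf. The interaction used all 12 libraries. The counts are therefore not independent, and a fall with Inf and a rise on adding IL-4/13 are not separate findings.

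**Figure D1:**
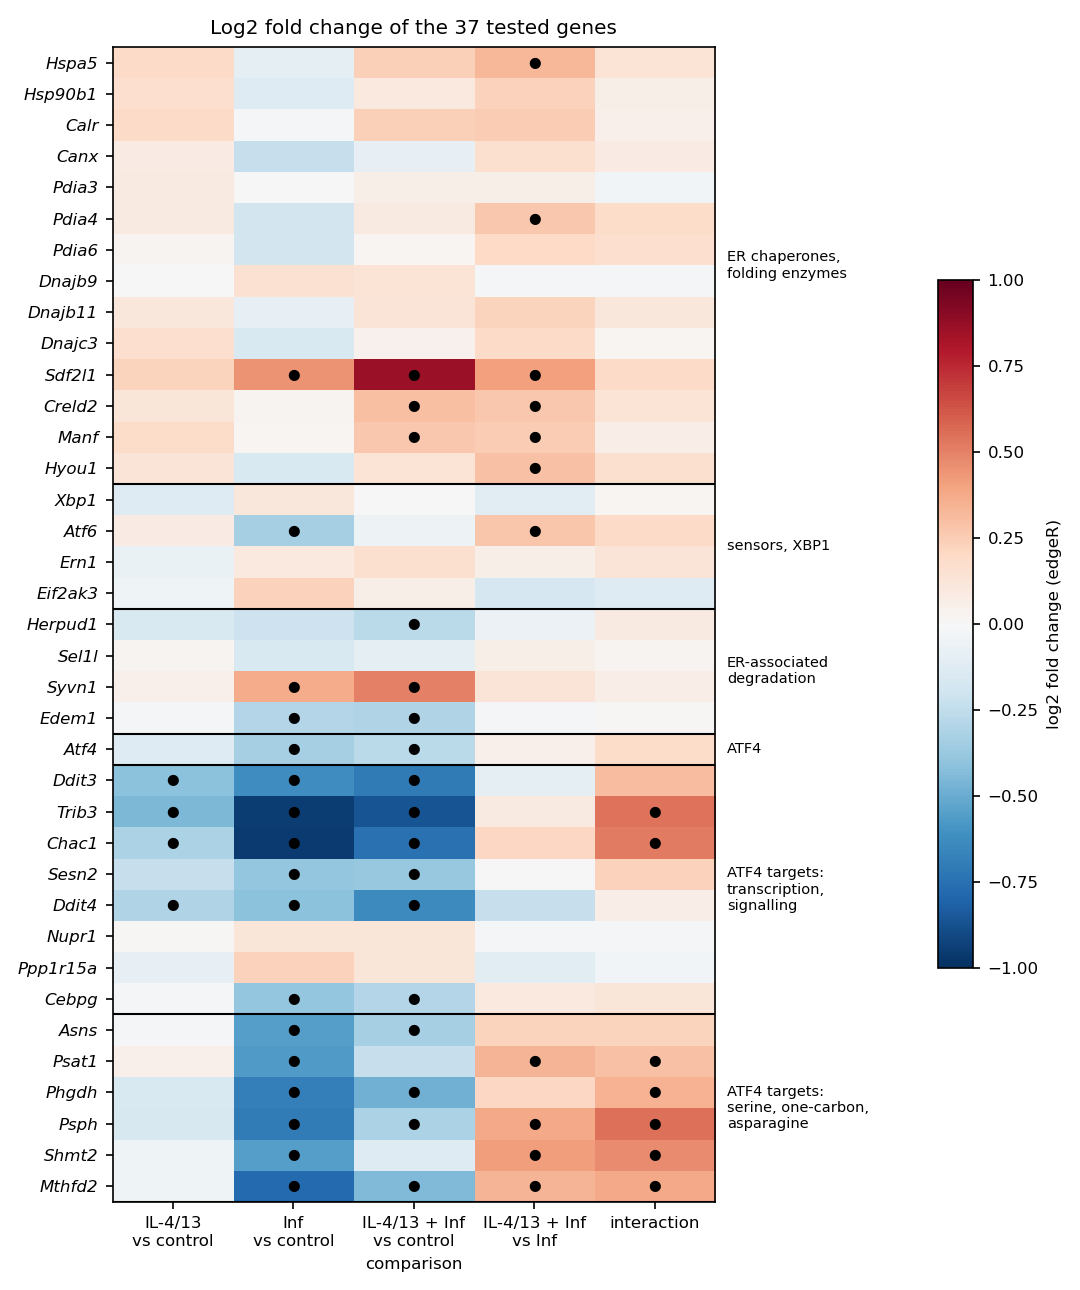
The heat map shows the log2 fold change (color scale, −1 to 1) of each of the 37 tested genes (rows, grouped by role) in the 5 comparisons (columns), and dots mark called genes. Inf gave 12 dots among the 14 ATF4 targets and 1 among the 14 chaperones, and the 7 dots in the interaction column are all in ATF4 targets.

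Promoter sequences were searched for the elements of both pathways. The genes were listed for their membership of these pathways, so a high share with such elements is a description and no independent evidence. The ER stress response element, bound by ATF6 with NF-Y and by XBP1, consists of CCAAT and CCACG separated by 9 bases, and a second form has ATTGG and CCACG separated by 1 base. The amino acid response element bound by ATF4 with C/EBP partners was searched as TGATGNAA. All were searched on both strands in RefSeq promoters (GRCm38.p6) of 250 bases before to 50 bases after the gene start, and 35 of the 38 genes were matched. Manf, Hyou1, and Atf6 were not matched. The first form was found in 7 of 12 chaperone promoters and the second form in 1 more, Dnajb11. Neither form was found in any of the 14 ATF4 target promoters (0 of 14). Among all 32851 promoters, 0.119% held the first form and 0.0365% held the second. The amino acid response element was found in 4 of 14 ATF4 target promoters, in 0 of 12 chaperone promoters, and in 3.97% of all promoters.

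The following stretches show the ER stress response element of 4 abundant chaperone genes, read 5′ to 3′ along the strand of the gene, with the element in capitals. In Calr it lies in reverse orientation. They are chr2:34772010-34772058 (plus strand) for Hspa5, chr8:84847060-84847108 (minus strand) for Calr, chr11:50325785-50325833 (minus strand) for Canx, and chr12:17266476-17266524 (plus strand) for Pdia6, all in GRCm38.p6. The bases between CCAAT and CCACG were left free in the search and differ in each gene.
Hspa5: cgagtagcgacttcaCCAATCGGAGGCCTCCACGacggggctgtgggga
Calr: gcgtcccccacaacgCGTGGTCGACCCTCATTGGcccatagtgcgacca
Canx: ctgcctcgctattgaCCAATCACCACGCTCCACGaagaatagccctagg
Pdia6: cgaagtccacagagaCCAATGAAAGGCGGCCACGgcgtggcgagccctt

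The next stretches show the amino acid response element, in capitals, upstream of 3 ATF4 targets, of which Asns and Chac1 fell with Inf and Nupr1 was not called in any comparison. They are chr6:7693210-7693247 (minus strand) for Asns, chr2:119351034-119351071 (plus strand) for Chac1, and chr7:126625558-126625595 (minus strand) for Nupr1. In Chac1 and Nupr1 the element is in reverse orientation. Chac1 and Nupr1 held the same 8 letters, and Asns differed from them at the free base of the motif. The fourth match, in Trib3, lies 14 to 21 bases after the first base of the gene. Outside both groups, Syvn1 and Derl3 held the first form of the ER stress response element, and Herpud1 held the second form and the amino acid response element.
Asns: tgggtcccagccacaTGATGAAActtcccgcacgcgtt
Chac1: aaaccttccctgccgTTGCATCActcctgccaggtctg
Nupr1: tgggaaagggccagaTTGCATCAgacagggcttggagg

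Among the 14 ER chaperones and folding enzymes, 6 rose when IL-4/13 was added to Inf, 1 rose with Inf, and none was called with IL-4/13 alone (0 of 14). Among all tested genes, 7.55%, 16.3%, and 2.78% were called up in these comparisons. Per kilobase of transcript, control levels ranged from 733 CPM for Calr, a lectin chaperone that binds calcium, down to 6.38 CPM for Dnajb9, a cochaperone of BiP. Pdia3, a protein disulfide isomerase that works with the lectin chaperones, and Hsp90b1, the ER member of the HSP90 family, followed at 300 and 285 CPM per kilobase, and Hspa5, which encodes BiP, was at 236 CPM per kilobase. Hspa5 had 833, 906, and 857 CPM in the 3 control libraries and 972, 1000.4, and 979.6 CPM with IL-4/13. It had 792, 826, and 829 CPM with Inf and 1036, 1017, and 1022 CPM with IL-4/13 + Inf. Every library with IL-4/13 was higher than every library without it, and the Inf libraries were all below the control libraries. The log2 fold change of Hspa5 was 0.19 ± 0.04 (SE) with IL-4/13 alone (adjusted p = 0.0012), which lay under the size threshold, and Hspa5 rose by 0.33 ± 0.04 when IL-4/13 was added to Inf (adjusted p = 8.8e-08).

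Adding IL-4/13 to Inf upregulated 6 of the 14 chaperone genes, against 7.55% of all tested genes. Beside Hspa5 these were Pdia4 (log2 fold change 0.27), a disulfide isomerase, Hyou1 (0.29), a large HSP70-like exchange factor for BiP, Creld2 (0.27) and Manf (0.25), small secreted or ER-resident stress proteins, and Sdf2l1 (0.41), a partner of BiP cochaperones. Several of these lay close to the threshold. Manf was called and Calr was not, and both had 0.25 after rounding. Without Inf replicate 2 the log2 fold change of Creld2 was 0.18 and that of Manf was 0.22. Without Inf replicate 1 the value for Pdia4 was 0.23. In all, 12 of the 14 had an adjusted p below 0.05 with positive fold changes of any size. Pdia3 (0.06) and Dnajb9 (−0.02) did not. Without Inf, IL-4/13 upregulated 0 of the 14 (0 by DESeq2 and 10 at an unadjusted p below 0.05), although all 14 fitted changes were at or above 0.00 and 5 had an adjusted p below 0.05.

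Sdf2l1 was the chaperone gene with the largest change. It had 19.7, 20.7, and 17.7 CPM in control, 21.1, 23.3, and 23.4 CPM with IL-4/13, 26.6, 23.9, and 29.1 CPM with Inf, and 35.5, 34.2, and 36.0 CPM with IL-4/13 + Inf. The 4 conditions did not overlap. Its log2 fold change was 0.45 ± 0.09 (SE) with Inf (adjusted p = 8.4e-05) and 0.86 ± 0.08 with IL-4/13 + Inf against control (adjusted p = 7.3e-10), whereas the value of 0.22 ± 0.09 with IL-4/13 alone did not pass the test (adjusted p = 0.13). With Inf, which upregulated 16.3% of all tested genes, Sdf2l1 was the single chaperone gene of 14 called. Of the rest, 6 had an adjusted p below 0.05 with small negative changes, from −0.13 in Hsp90b1 to −0.23 in Canx, a membrane-bound lectin chaperone. In IL-4/13 + Inf against control, 3 chaperone genes rose, namely Sdf2l1, Creld2 (0.30), and Manf (0.27). Among all tested genes, 13.4% were called up. Hspa5 and Calr both had 0.24, under the size threshold.

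Whether the chaperones' response to IL-4/13 differed with Inf was tested for each gene, and 0 of 14 were called (0 by DESeq2, 4 at an unadjusted p below 0.05). The fitted differences ran from −0.03 in Pdia3 to 0.19 in Sdf2l1. The intervals of 2 SE were wide for the low genes, from −0.31 to 0.28 in Dnajb9 and from −0.05 to 0.43 in Sdf2l1, and narrower for the abundant ones, from 0.04 to 0.25 in Hspa5 and from −0.04 to 0.15 in Calr. Among the chaperones, Pdia6, a disulfide isomerase, and Dnajb11 and Dnajc3, cochaperones of BiP, were not called in any comparison, with log2 fold changes between −0.18 and 0.22. Hsp90b1, Calr, Canx, Pdia3, and Dnajb9 were not called in any comparison either.

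The genes for the sensors and XBP1 changed little, apart from Atf6. Atf6 had 84.4, 85.9, and 83.1 CPM in control, 91.2, 88.1, and 89.4 CPM with IL-4/13, 64.7, 73.2, and 63.5 CPM with Inf, and 78.0, 83.1, and 83.8 CPM with IL-4/13 + Inf. The 3 Inf libraries lay below all others. Atf6 fell with Inf by 0.33 ± 0.06 (SE) on the log2 scale (adjusted p = 1.8e-05) and rose by 0.28 ± 0.06 when IL-4/13 was added (adjusted p = 0.00042), and without Inf replicate 3 the latter value was 0.24. Xbp1 had 95.9, 97.6, and 102.5 CPM in control, 94.0, 87.0, and 88.6 CPM with IL-4/13, 108.9, 99.4, and 111.6 CPM with Inf, and 98.4, 99.4, and 98.0 CPM with IL-4/13 + Inf. Its log2 fold changes, from −0.13 to 0.11 over the 4 comparisons between conditions, did not pass the test. Ern1 and Eif2ak3 were not called in any comparison. Eif2ak3 with Inf had 0.23 (adjusted p = 0.0097), just under the threshold, and 0.27 without Inf replicate 3.

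Among the 4 tested genes of ER-associated degradation, Inf upregulated Syvn1 and downregulated Edem1, against 16.3% and 15.3% of all tested genes. Syvn1 encodes HRD1, the ubiquitin ligase that marks ER proteins for the proteasome. It had 75.8, 65.9, and 82.8 CPM in control, 81.4, 71.8, and 79.5 CPM with IL-4/13, 102.9, 93.9, and 93.6 CPM with Inf, and 104.3, 103.1, and 109.4 CPM with IL-4/13 + Inf. All 6 libraries with Inf were above all 6 without it, and Syvn1 rose with Inf by 0.37 ± 0.07 (SE, adjusted p = 5.1e-05) and with IL-4/13 + Inf by 0.50 ± 0.07 against control (adjusted p = 7e-07). Edem1, a mannosidase-like protein that extracts misfolded glycoproteins from the folding cycle, had 108.5, 102.3, and 107.5 CPM in control, 107.7, 106.1, and 100.2 CPM with IL-4/13, 84.1, 90.6, and 86.2 CPM with Inf, and 87.4, 88.5, and 83.3 CPM with IL-4/13 + Inf. Here the 6 libraries with Inf were below all 6 without it, and Edem1 fell with Inf by 0.29 ± 0.05 (adjusted p = 3.3e-05). Herpud1, which recruits ubiquitin ligase complexes, fell with IL-4/13 + Inf against control (−0.27 ± 0.04, adjusted p = 1.1e-05) and had −0.21 with Inf, under the threshold. Sel1l, the partner of HRD1, was not called. None of the 4 tested genes was called when IL-4/13 was compared with control or added to Inf (0 of 4, with 1 and 0 at an unadjusted p below 0.05 and 0 by DESeq2).

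**Figure D2:**
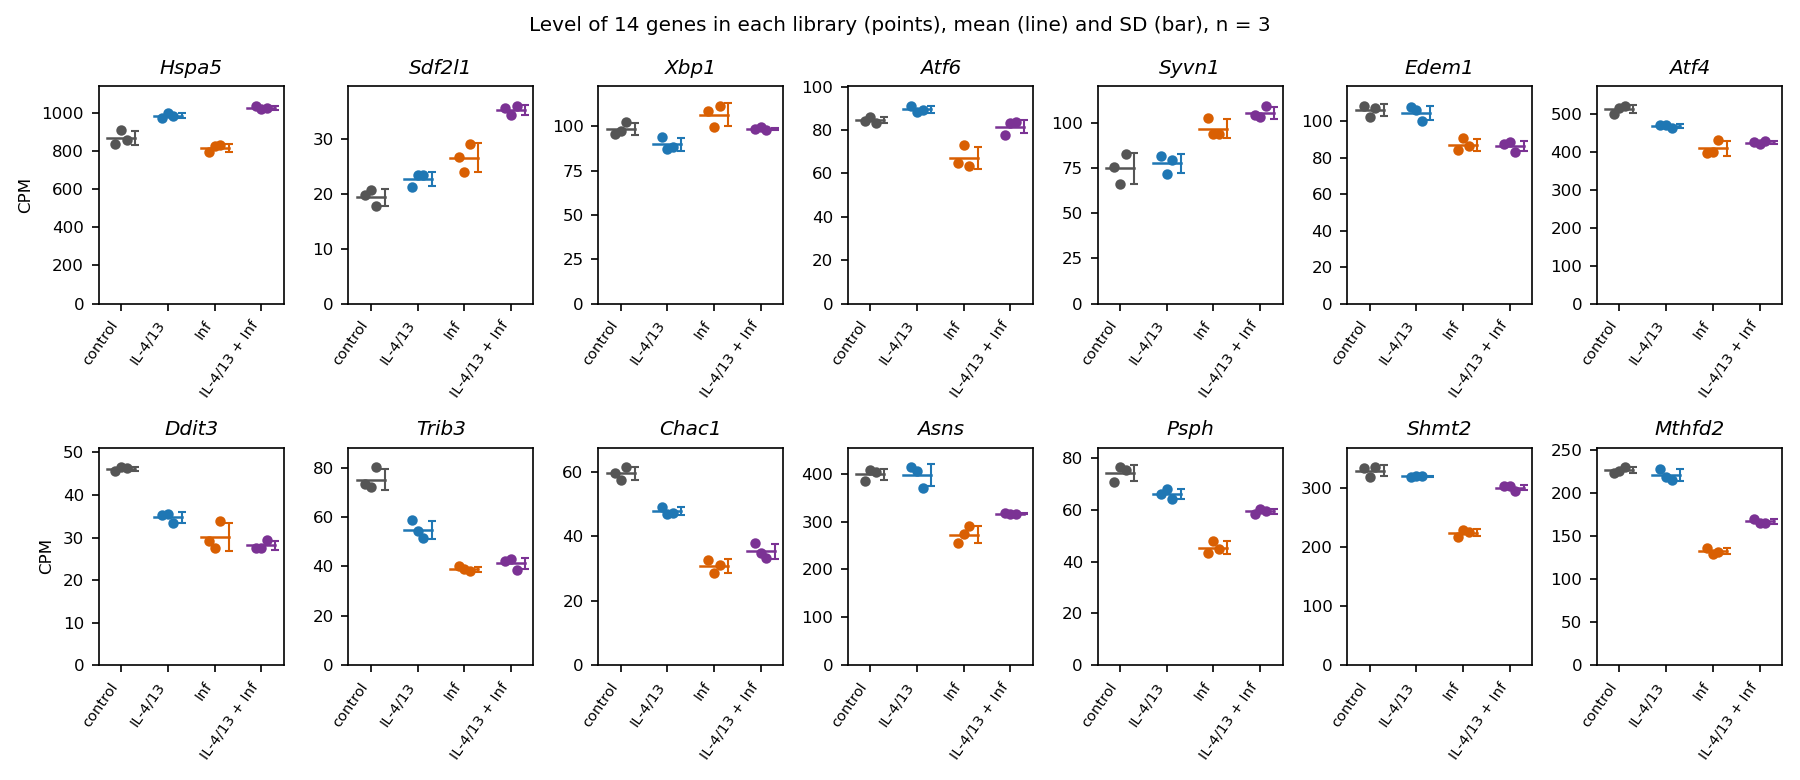
Each panel shows the CPM (vertical axis, from 0) of 1 of 14 genes in the 12 libraries by condition (horizontal axis), with points for libraries, a line for the mean, and a bar for the SD. Every IL-4/13 library lies above every control library for Hspa5, and Trib3, Chac1, Psph, Shmt2, and Mthfd2 are lowest in the Inf libraries or in both conditions with Inf.

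Atf4 mRNA was lower with Inf. It had 499, 516, and 520.4 CPM in control, 471, 470.1, and 462 CPM with IL-4/13, 395, 399, and 429.9 CPM with Inf, and 425, 419.6, and 427 CPM with IL-4/13 + Inf. All libraries with Inf were below all libraries without it, and the control and IL-4/13 libraries did not overlap either. Atf4 fell with Inf by 0.33 ± 0.04 (SE) on the log2 scale (adjusted p = 6.5e-08) and with IL-4/13 + Inf against control by 0.27 ± 0.04 (adjusted p = 1.8e-06). With IL-4/13 alone it had −0.13 ± 0.04 (adjusted p = 0.039), under the size threshold, and when IL-4/13 was added to Inf it had 0.05 ± 0.04 (adjusted p = 0.37).

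Of the 8 ATF4 targets in transcription and signalling, Inf downregulated 6 and IL-4/13 alone 4 (15.3% and 2.57% of all tested genes). None of the 8 was called when IL-4/13 was added to Inf (0 by either tool). At an unadjusted p below 0.05, 1 was higher and 1 was lower. Ddit3 had 45.6, 46.5, and 46.3 CPM in control, 35.3, 35.6, and 33.3 CPM with IL-4/13, 29.1, 27.6, and 33.8 CPM with Inf, and 27.6, 27.4, and 29.4 CPM with IL-4/13 + Inf. Each treated library was below each control library. Ddit3 fell by 0.41 ± 0.07 (SE) with IL-4/13 alone (adjusted p = 0.00022) and by 0.62 ± 0.07 with Inf (adjusted p = 3.5e-08). A second locus annotated as Ddit3 had 0 counts in all libraries.

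Trib3, a pseudokinase that restrains ATF4 and insulin signalling, had 73.4, 72.1, and 80.2 CPM in control, 58.7, 54.4, and 51.5 CPM with IL-4/13, 40.0, 38.8, and 38.01 CPM with Inf, and 42.3, 42.9, and 38.5 CPM with IL-4/13 + Inf. It fell by 0.45 ± 0.06 with IL-4/13 (adjusted p = 7.1e-06) and by 0.95 ± 0.06 with Inf (adjusted p = 2.2e-13), and the Inf and IL-4/13 + Inf libraries overlapped. Chac1, which degrades glutathione, had 59.8, 57.4, and 61.4 CPM in control, 49.2, 47.0, and 47.2 CPM with IL-4/13, 32.6, 28.4, and 31.1 CPM with Inf, and 37.8, 34.7, and 33.3 CPM with IL-4/13 + Inf. It fell by 0.32 ± 0.07 with IL-4/13 (adjusted p = 0.0014) and by 0.96 ± 0.07 with Inf (adjusted p = 4.6e-13). Those of Trib3 and Chac1 were the largest falls with Inf among the 37 tested genes. For both genes the response to IL-4/13 differed with Inf, by 0.54 ± 0.09 in Trib3 (adjusted p = 0.00038) and by 0.52 ± 0.10 in Chac1 (adjusted p = 0.00081). Both fell with IL-4/13 in the absence of Inf, and in its presence they had 0.09 and 0.21, neither of which was called.

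Ddit4, an inhibitor of mTORC1, fell with IL-4/13 (−0.30), with Inf (−0.41), and with the combination against control (−0.64), and its interaction value of 0.07 had an interval of 2 SE from −0.07 to 0.22. Sesn2, another inhibitor of mTORC1, and Cebpg, a dimerization partner of ATF4, both fell with Inf by 0.39. Sesn2 with IL-4/13 alone had −0.23, which became −0.25 and −0.26, past the threshold, without control replicates 1 and 2, respectively. Nupr1, a small chromatin-associated stress protein, and Ppp1r15a, the eIF2α phosphatase subunit GADD34 that reverses the stress signal, were not called in any comparison. Ppp1r15a with Inf had a positive value of 0.23 (adjusted p = 0.016), and Nupr1 had 0.12 (adjusted p = 0.15).

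Inf downregulated all 6 enzymes of serine, one-carbon, and asparagine synthesis (15.3% of all tested genes). In the presence of Inf, IL-4/13 raised 4 of them (7.55% of all tested genes). In its absence none was called (0 of 6 by edgeR and by DESeq2, with 2 lower at an unadjusted p below 0.05). Asns, which makes asparagine, had 385, 408, and 403.5 CPM in control, 414, 406, and 371 CPM with IL-4/13, 255, 273, and 291 CPM with Inf, and 318, 316, and 317 CPM with IL-4/13 + Inf. The control and IL-4/13 libraries overlapped, the Inf libraries were lowest, and the combination lay between. Asns fell with Inf by 0.55 ± 0.05 (SE, adjusted p = 4.8e-11) and had 0.22 ± 0.05 when IL-4/13 was added to Inf (adjusted p = 0.001), under the size threshold, and 0.26 without Inf replicate 3.

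Mthfd2, a mitochondrial enzyme that oxidizes one-carbon folates, had 223, 226, and 229.6 CPM in control, 228, 218, and 214 CPM with IL-4/13, 136, 129, and 131 CPM with Inf, and 169.7, 165, and 165 CPM with IL-4/13 + Inf. It fell with Inf by 0.78 ± 0.04 (adjusted p = 1.5e-15) and rose by 0.34 ± 0.04 when IL-4/13 was added (adjusted p = 6.4e-07). Shmt2, the mitochondrial enzyme that feeds serine into the folate pool, had 334, 319, and 336 CPM in control, 319, 320.1, and 321 CPM with IL-4/13, 218, 230.0, and 225 CPM with Inf, and 303, 304.5, and 296 CPM with IL-4/13 + Inf. Its fall with Inf was 0.55 ± 0.04 on the log2 scale (adjusted p = 1.1e-12), and the rise on adding IL-4/13 was 0.42 ± 0.04 (adjusted p = 2.7e-09). Psph, which catalyses the last step of serine synthesis, had 70.7, 76.6, and 75.6 CPM in control, 66.3, 68.2, and 64.3 CPM with IL-4/13, 43.4, 48.2, and 44.9 CPM with Inf, and 58.4, 60.5, and 59.8 CPM with IL-4/13 + Inf. Psph fell with Inf by 0.70 ± 0.06 (adjusted p = 1.9e-11) and rose by 0.38 ± 0.06 when IL-4/13 was added (adjusted p = 1.1e-05). In all 3 genes the combination lay between Inf and control without overlap with either.

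The remaining enzymes of this group also fell with Inf. Psat1, which precedes Psph in serine synthesis, fell by 0.57 with Inf and rose by 0.34 when IL-4/13 was added. Phgdh, the first enzyme of the pathway, fell by 0.68 with Inf and had 0.21 when IL-4/13 was added, under the threshold. For Phgdh, 63.1% of the 50-base words of its longest transcript also occurred in transcripts of other genes, with most matches in Gm7901, Gm9347, and Gm8341. Its count therefore depended on how shared reads were assigned and is uncertain. Such sharing was at most 6.09% for the other members. Relative to control, IL-4/13 + Inf left 4 of the 6 downregulated, against 11.5% of all tested genes. The values were −0.48 in Phgdh, −0.44 in Mthfd2, −0.33 in Asns, and −0.32 in Psph. Psat1 had −0.23 and Shmt2 had −0.13, both under the threshold.

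The interaction term was called for 5 of the 6 enzymes, all with a higher response to IL-4/13 in the presence of Inf (1.52% of all tested genes). The values were 0.55 ± 0.08 (SE) in Psph (adjusted p = 5.9e-05), 0.47 ± 0.06 in Shmt2 (adjusted p = 2.5e-06), 0.38 ± 0.06 in Mthfd2 (adjusted p = 0.00017), 0.35 ± 0.06 in Phgdh (adjusted p = 0.00044), and 0.29 ± 0.05 in Psat1 (adjusted p = 0.00096). Asns had 0.22 ± 0.07 (adjusted p = 0.061) and 0.28 without Inf replicate 3 (adjusted p = 0.0023). Ddit3, with 0.31 ± 0.10 (adjusted p = 0.11), likewise passed only without Inf replicate 3, at 0.41 (adjusted p = 0.01).

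**Figure D3:**
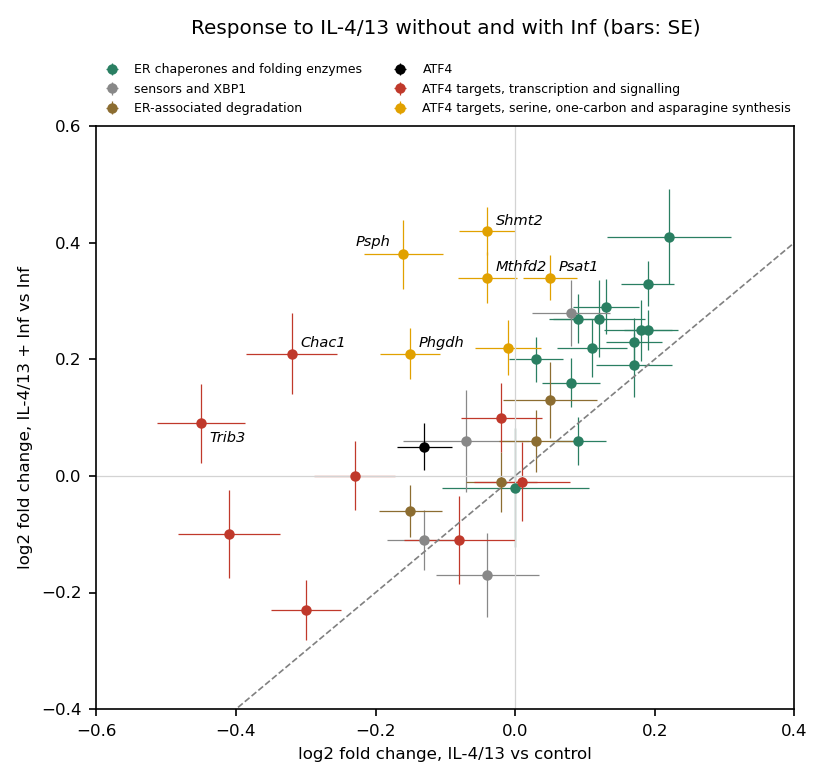
Each point is 1 of the 37 tested genes, with its log2 fold change for IL-4/13 against control on the horizontal axis, for IL-4/13 + Inf against Inf on the vertical axis, and SE bars, colored by role. The 7 named genes, called for the interaction, all lie above the dashed line of equal response.

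The chaperones and the ATF4 targets were compared by their medians, which are given without a test because the genes were chosen with results of these data known. The median log2 fold changes of the 14 chaperones and the 14 ATF4 targets were 0.13 and −0.11 with IL-4/13, −0.08 and −0.56 with Inf, 0.14 and −0.36 with IL-4/13 + Inf against control, and 0.24 and 0.15 when IL-4/13 was added to Inf. In the interaction they were 0.10 and 0.30. The medians of all tested genes lay between −0.01 and 0.01 in these comparisons. The chaperone median minus that of the ATF4 targets was thus 0.24, 0.48, 0.49, 0.09, and −0.20. Within the ATF4 targets, IL-4/13 added to Inf had a median of 0.34 in the synthesis enzymes (range 0.21 to 0.42), and of 0.00 in the transcription and signalling genes (range −0.23 to 0.21).

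The summed level of the 14 chaperones was 6234 ± 105.6 CPM in control, 6876 ± 68.3 CPM with IL-4/13, 5878 ± 162 CPM with Inf, and 6857 ± 51.9 CPM with IL-4/13 + Inf (SD, n = 3 each). All 6 libraries with IL-4/13 exceeded all 6 without it. The summed level of the synthesis enzymes was 2072 ± 25.6, 2049.6 ± 42.7, 1363 ± 44.9, and 1698 ± 10.6 CPM in the same order. Here the control and IL-4/13 libraries overlapped, and the 3 Inf libraries, at 1318 to 1408 CPM, were lowest. The summed level of the transcription and signalling genes was 702 ± 25.5, 594 ± 5.63, 529 ± 12.7, and 507 ± 4.74 CPM. That order ran from control to the combination with no overlap between the conditions. These sums are weighted toward the abundant genes Calr, Psat1, and Ddit4.

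**Figure D4:**
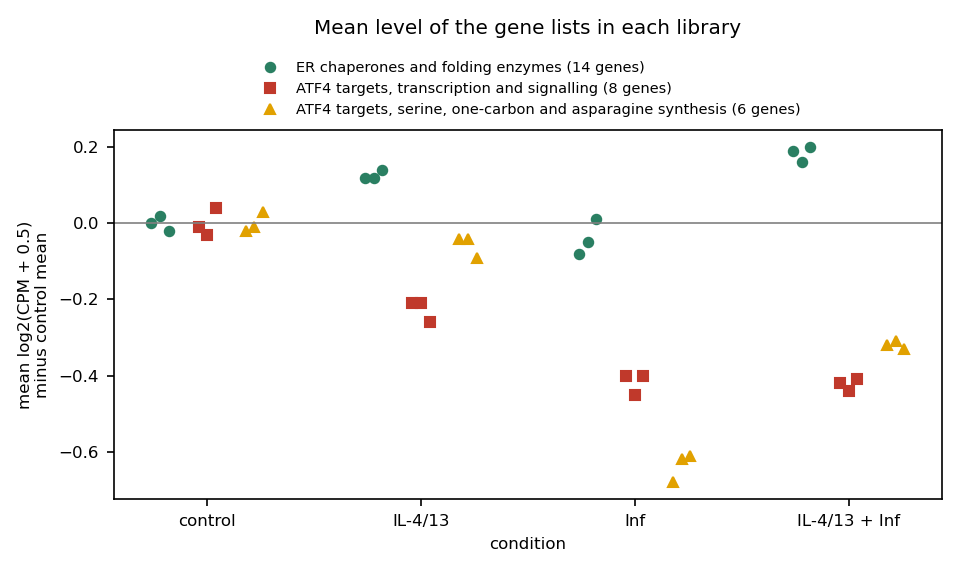
Points show, for each library by condition (horizontal axis), the mean over a gene list of log2(CPM + 0.5) minus the control mean (vertical axis). The chaperones lie at 0.12 to 0.14 with IL-4/13 and 0.16 to 0.20 with IL-4/13 + Inf, and the synthesis enzymes at −0.68 to −0.61 with Inf and −0.33 to −0.31 with the combination.

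A further 117 genes of the same pathways, of which 115 were tested, were grouped in 5 lists. Of the amino acid transporters and aminoacyl-tRNA synthetases, many of them regulated by ATF4, Inf downregulated 18 of 21 (15.3% of all tested genes) and upregulated 1 (16.3%), the cystine transporter gene Slc7a11 (0.36 ± 0.06, SE, adjusted p = 4.6e-06). Slc7a5, which encodes the large neutral amino acid transporter LAT1, fell by 1.40 ± 0.05 (adjusted p = 4.4e-21), from 453 ± 17.2 CPM to 171 ± 6.46 CPM (SD, n = 3 each). The glutamine transporter gene Slc1a5 fell by 0.83 and the alanine and serine transporter gene Slc1a4 fell by 0.75. All 12 tRNA synthetase genes on the list were among the 18. IL-4/13 alone downregulated 3 of the 21, Slc7a5 (−0.31), Slc1a4 (−0.29), and Slc7a11 (−0.26), against 2.57% of all tested genes. The Slc7a11 value was under the threshold without control replicate 3 (−0.24), IL-4/13 replicate 2 (−0.22), or IL-4/13 replicate 3 (−0.24). When IL-4/13 was added to Inf, 5 rose, led by Slc1a5 (0.47), Slc7a5 (0.43), and the arginine transporter gene Slc7a1 (0.43), and Slc7a11 fell by 0.41 (7.55% and 7.00% of all tested genes were called up and down). The interaction was called for 7 of the 21, all positive (1.52% of all tested genes), with 0.74 ± 0.07 in Slc7a5 (adjusted p = 7.1e-09), 0.49 in Slc1a5, and 0.45 in Slc7a1. Relative to control, the combination left 13 of the 21 downregulated, against 11.5% of all tested genes. The lowest values were −0.97 in Slc7a5, −0.77 in Slc1a4, and −0.61 in the glycine transporter gene Slc6a9.

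Among the 17 tested of 18 other genes linked to ATF4, Inf downregulated 8 and upregulated 3, against 15.3% and 16.3% of all tested genes. The alanine aminotransferase gene Gpt2 fell by 1.09 ± 0.05 (adjusted p = 9.6e-18), and Aldh1l2, a mitochondrial folate enzyme, fell by 0.90 ± 0.05 (adjusted p = 2e-15). Fgf21, a secreted metabolic hormone, fell by 2.55 ± 0.42 (adjusted p = 1e-05), but it had at most 30 counts in any library. Adding IL-4/13 to Inf gave 2 rises and 3 falls (7.55% and 7.00% of all tested genes), with 0.55 in Cth, which makes cysteine, 0.68 in the secreted glycoprotein gene Stc2, and −0.53 in the growth arrest gene Gadd45a. IL-4/13 alone gave 1 fall, in the lipoprotein receptor gene Vldlr (−0.29), against 2.57% of all tested genes. The interaction was called for 4 (1.52% of all tested genes), including Cth (0.47), Gpt2 (0.38), and Aldh1l2 (0.33), all positive. With IL-4/13 + Inf against control there were 6 falls and 1 rise (11.5% and 13.4% of all tested genes). The rise was in Stc2, and its call was lost without control replicate 2 (0.36, adjusted p = 0.11) or 3 (0.42, adjusted p = 0.073). It was also lost without IL-4/13 + Inf replicate 2 (0.41, adjusted p = 0.085) or 3 (0.36, adjusted p = 0.12). The falls were led by Fgf21 (−1.76), Gpt2 (−0.93), and Aldh1l2 (−0.65).

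The eIF2α kinases, phosphatases, and other stress transcription factors moved in both directions. Of 22 tested, Inf upregulated 8 and downregulated 5, against 16.3% and 15.3% of all tested genes. Cebpb, a transcription factor of inflammation and adipogenesis, rose by 1.69 ± 0.10 (adjusted p = 3.5e-12), and Traf2, an adaptor of TNF receptors and of IRE1, rose by 0.90 ± 0.07 (adjusted p = 1.2e-12). Atf5, a stress factor related to ATF4, fell by 0.87 ± 0.04 (adjusted p = 1.5e-16). Its interaction value was 0.41 ± 0.06 (adjusted p = 6.5e-05), the single interaction call on this list (1.52% of all tested genes). Atf3, an early stress factor, rose by 0.52 ± 0.16 when IL-4/13 was added to Inf (adjusted p = 0.016). In the same comparison Cebpb fell by 0.53 ± 0.09 (adjusted p = 0.00018), and Mbtps2, a protease that cuts ATF6, rose by 0.27. Atf3 was not called without Inf replicate 1 (0.48, adjusted p = 0.055) or IL-4/13 + Inf replicate 2 (0.40, adjusted p = 0.14), and Mbtps2 was not called without Inf replicate 3 (0.22). Against control the combination gave 7 rises and 3 falls (13.4% and 11.5% of all tested genes). The values were 1.35 in Atf3, 1.16 in Cebpb, and 0.72 in Traf2. Among all tested genes, IL-4/13 alone downregulated 2.57%. On this list it gave 1 call by edgeR, in the apoptosis gene Bbc3 (−0.29, adjusted p = 0.047), and 0 by DESeq2 (adjusted p = 0.066). This call was also lost when any control or IL-4/13 library was left out, with values from −0.31 to −0.25 and adjusted p from 0.081 to 0.15, and without IL-4/13 + Inf replicate 1 (adjusted p = 0.057) or 2 (adjusted p = 0.059).

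The counts called with Inf stand against 16.3% of all tested genes called up and 15.3% called down, and those of the further folding genes are no larger a share. Of 22 further ER folding genes, Inf upregulated the ER oxidases Ero1a (0.76 ± 0.05, SE, adjusted p = 3.7e-14) and Ero1b (0.87 ± 0.13, adjusted p = 3.5e-06) and downregulated 3, led by the disulfide isomerase gene Txndc5 (−0.53). Of 33 further genes of degradation, translocation, and vesicle transport, Inf upregulated 3, Edem2, Selenok, and Rnf5 (each 0.31), and downregulated 1. IL-4/13 gave 0 calls in either list, alone or added to Inf, and DESeq2 gave 0 as well. At an unadjusted p below 0.05, IL-4/13 alone had 1 higher and 4 lower folding genes and 2 higher and 5 lower degradation and transport genes, and IL-4/13 added to Inf had 6 higher and 5 lower genes in each list. With IL-4/13 + Inf against control, Ero1a had 1.00, Ero1b had 0.69, Txndc5 had −0.48, and Selenos, an ER membrane selenoprotein, had 0.27, all called. The Selenos value was under the threshold without control replicate 3 (0.22) or IL-4/13 + Inf replicate 3 (0.21).

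**Figure D5:**
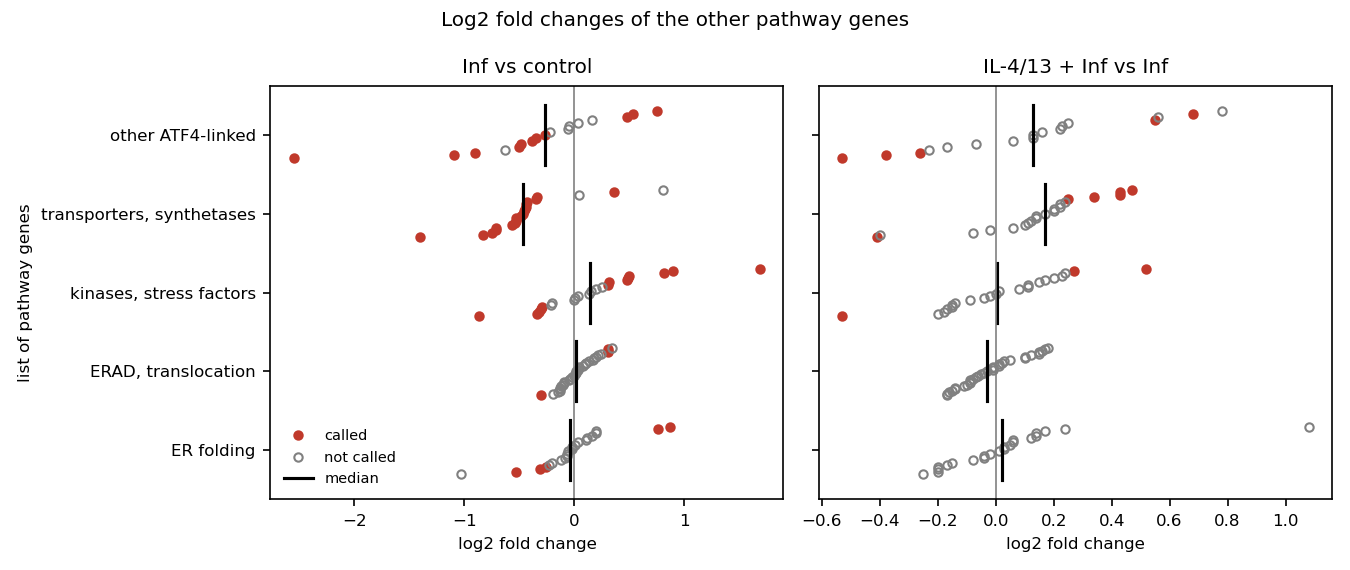
Points show log2 fold changes (horizontal axis) of the 115 other tested pathway genes in 5 lists (vertical axis) for Inf against control (left) and IL-4/13 + Inf against Inf (right), filled where called, with vertical lines for list medians. The transporters and synthetases have medians of −0.47 on the left and 0.17 on the right.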

How the data were processed

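RNA from 12 libraries of 3T3-L1 cells was sequenced from polyadenylated, stranded libraries with 1 batch label. The authors deposited raw counts, whole numbers of reads per Ensembl gene without normalization. The submitters' processing notes name STAR, featureCounts, and GRCm39. Versions, annotation release, and strand setting are not given in the sources used here, so reads of overlapping or near-identical genes may have been split in an unknown way.

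From the deposited counts, edgeR 4.0.16 (R 4.3.3) kept 14810 genes with filterByExpr (minimum count 10, minimum total count 15), applied TMM factors (0.986 to 1.017), and fitted 1 robust quasi-likelihood model with a term per condition to all 12 libraries. The contrasts were 5 in number, each adjusted over all tested genes. The study tested these libraries with DESeq2. Here edgeR was the main tool, and DESeq2 1.42.0 was an alternative. The thresholds (FDR 0.05, absolute log2 fold change 0.25) are those the methods give for pseudobulk genes. SE was the absolute log2 fold change divided by the square root of the F statistic. CPM per kilobase used the longest transcript, and shared sequence the 50-base words, of GENCODE M21 (GRCm38). Symbols absent from the table, for 23268 genes, were filled from a table of gene names. The members and lists were chosen with earlier results of these data known. Values in every library are given for Hspa5, Xbp1, Atf4, Ddit3, and Asns and for the 2 called members with the largest changes per role and contrast (IL-4/13 + Inf against control excepted), and up to 3 called genes are named per pathway list and contrast. On simulated counts with a log2 change of 1, edgeR recovered 82.5% of 194 changed genes for IL-4/13 against control among 14518 genes and called 8 unchanged genes. All changes of the members were smaller, so this recovery does not extend to changes near the size threshold. Same-numbered libraries were not paired, since their deviations from the condition means had correlations of −0.146 to 0.054 over 18 pairs. The alternatives were DESeq2, scaling by its size factors or by library size alone, omission of the filter, a mean of at least 50 counts, only the groups compared, a replicate block, each library left out, and other thresholds.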

Additional observations from a re-analysis of the deposited data

Results flagged for a closer look

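The interaction term of edgeR's fit over all 14810 tested genes, which compares the response to IL-4/13 with and without Inf, was called for 7 members and 12 other pathway genes (1.52% of all tested genes were called in this direction and 1.59% in the other). Each log2 difference was positive, so that the response was higher with Inf. Among the ATF4 targets the differences were 0.55 in Psph, 0.54 in Trib3, 0.52 in Chac1, 0.47 in Shmt2, 0.38 in Mthfd2, 0.35 in Phgdh, and 0.29 in Psat1. The count of Phgdh is uncertain because of shared sequence. Among the transporters and tRNA synthetases they were 0.74 in Slc7a5, 0.49 in Slc1a5, 0.45 in Slc7a1, 0.38 in Wars1, 0.32 in Slc3a2, 0.29 in Mars1, and 0.27 in Yars1. Among the other pathway genes they were 0.47 in Cth, 0.41 in Atf5, 0.38 in Gpt2, 0.33 in Aldh1l2, and 0.26 in Xpot. Wars1, Slc3a2, Mars1, Yars1, and Xpot fall outside the rule for named genes and were added after their values were seen, to complete the list. The adjusted p-values ran from 7.1e-09 in Slc7a5 to 0.018 in Xpot. Groups of 3 libraries are too small for the check for single outlying libraries.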

How the results depend on the processing

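The size threshold moved the counts of called members most. Without one (a threshold of 0), IL-4/13 gave 5 upregulated and 8 downregulated members, Inf gave 4 and 23, the combination against control gave 8 upregulated, and IL-4/13 added to Inf gave 20 and 1. At 0.5 the counts were 0 downregulated with IL-4/13, 0 upregulated and 9 downregulated with Inf, 1 and 4 with the combination against control, 0 upregulated by IL-4/13 on top of Inf, and 3 for the interaction, and at 1 they were 0 throughout. A filter at a mean of 50 counts gave 4 members upregulated by Inf, the added 2 being Eif2ak3 (0.25) and Ppp1r15a (0.25), which lie at the threshold. When single libraries were left out, members downregulated on adding IL-4/13 to Inf numbered 0 to 1 (Ddit4, −0.26 without Inf replicate 2), and the difference of medians for the combination against control ranged from 0.43, without control replicate 3, to 0.51. A block for the replicate number, although the numbers did not pair the libraries, left the counts at 0 and 4 (IL-4/13), 2 and 15 (Inf), 4 and 13 (the combination against control), 11 and 0 (added to Inf), and 7 and 0 (interaction). Every call with IL-4/13 (4), Inf (17), and the interaction (7) held in each refit run. With IL-4/13 added to Inf, Manf (0.22 to 0.25), Creld2, Pdia4, and Atf6 lost the call in some refits, and so did Manf, Herpud1, and Cebpg in the combination against control. No called member changed sign. Depth and 3 libraries per condition limit the low genes, such as Dnajb9 and Ern1.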
